A study of Mus musculus with 10 samples.

Results

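The genes described here are 42 genes of the interferon response and of antigen presentation, followed in mouse pancreas. They fall into 4 groups: 21 genes induced mainly by type I interferons, 8 induced strongly by interferon-gamma, 5 of the class II presentation pathway and 8 of the class I pathway. Members were taken from a list of gene symbols, and the brightest transcript cluster with 1 symbol over all arrays stood for each gene. Of the 42 genes, 37 were measured in this way, among 19938 genes in all. The clusters of Isg15, Gbp2, H2-K1 and H2-D1 were shared with other symbols, and none of the named clusters carried Ifi44, so these 5 genes were not analysed here.

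Pancreas RNA of 10 samples was measured on 1 array each, of the type Affymetrix Mouse Gene 1.0 ST. The DKO group (n = 5) had the genotype PDX1Cre,Mst1-/-,Mst2L/L, in which the Hippo kinase MST1 is removed by a null allele and MST2 by Cre under the Pdx1 promoter, a promoter of pancreatic progenitors. Leukocytes and vessels of these samples therefore carry the Mst1 null allele too, but would keep Mst2. The control samples (n = 5) are labelled only as control, and both groups are of mixed strain background. Age, housing and the number of animals per sample are not given in the labels, so a p-value speaks only of the variation among these 10 arrays. Levels are log2 intensities as deposited, and differences are on the log2 scale, DKO minus control.

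Type I interferons bind a receptor present on nearly all cells and act through a complex that includes STAT2 and IRF9 and binds interferon-stimulated response elements of antiviral genes. Interferon-gamma, made by T and NK cells, acts on gamma-activated sites, and through IRF1 and CIITA it raises guanylate-binding proteins, chemokines and the machinery of antigen presentation. Many genes answer to both kinds of interferon, so the 2 groups of induced genes differ in emphasis and not in kind. Class I molecules, present on most cells, show peptides made by the proteasome and carried by TAP, whereas class II molecules are found mainly on B cells, dendritic cells and macrophages.

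The 10 samples were pancreas by their acinar markers: the mean log2 level of 8 measured acinar genes lay between 11.71 and 12.247 in DKO and between 12.251 and 12.48 in control arrays. Any 2 arrays correlated across all genes with r between 0.976 and 0.995. DKO replicate 1 stood apart by its hepatocyte genes, with a mean level of 11.18 over 10 markers, against 6.62 to 7.69 in the other DKO arrays and 6.78 to 7.70 in control arrays. Albumin (Alb) measured 13.40 in this array, 8.91 to 10.86 in the other DKO arrays and 8.54 to 10.51 in control arrays. Of the cell type markers, the duct keratins Krt7 (1.22 ± 0.14 SE, limma adjusted p = 0.00112) and Krt19 (0.41 ± 0.07 SE, adjusted p = 0.0155) rose and the acinar factor Rbpjl fell by 0.45 (SE 0.09, adjusted p = 0.0225). The 5 measured duct genes did not move as a set: 3 had a change above 0 and 2 below, down to -0.26. In 1 of them DKO lay wholly lower, against 1.28% of all genes. All 8 acinar genes had a change below 0 (median -0.33), and 2 lay wholly lower in DKO. All 5 measured islet genes were also below 0 (median -0.14), with 1 wholly lower and 0 past the test. Among all genes, 47.6% had a change above 0. The median change of the class II genes and the signs of the type I genes are also given below without DKO replicate 1. Other results include this array unless stated.

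None of the 37 measured members passed the test between DKO and control pancreas. By limma with Benjamini-Hochberg adjustment over all genes, 0 of 37 members passed an adjusted p of 0.05, while 2.44% of all genes did (2.08% higher and 0.366% lower in DKO). At an unadjusted p of 0.05 there were 2 members, Ddx58 and Rsad2, against 14.8% of all genes. An exact permutation test adjusted over all genes could call no gene in this design, its lowest adjusted p being 0.165, and it called 0 members, with Ddx58 alone at an unadjusted p under 0.05. In no member did the groups separate: 0 of 37 lay wholly higher in DKO, against 3.52% of all genes, and 0 lay wholly lower, against 1.28%. The precision was low for these genes, the standard error (SE) of their changes having a median of 0.34, against 0.08 over all genes.

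Members varied widely between samples of the same group. Their median pooled within-group SD was 0.63, against 0.12 for all genes, and 31 of 37 members lay in the 10% of genes with the largest SD. The highest level was often in the same array of a group. DKO replicate 4 was the highest DKO array in 27 of 37 members (16.5% of all genes), and control replicate 2 the highest control array in 34 of 37 (16.7% of all genes). In 26 members both held, as in 2.77% of all genes. At the low end, DKO replicate 3 was the lowest DKO array in 25 members (16.3% of all genes) and control replicate 3 the lowest control array in 22 (15.4% of all genes).

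**Figure D1:**
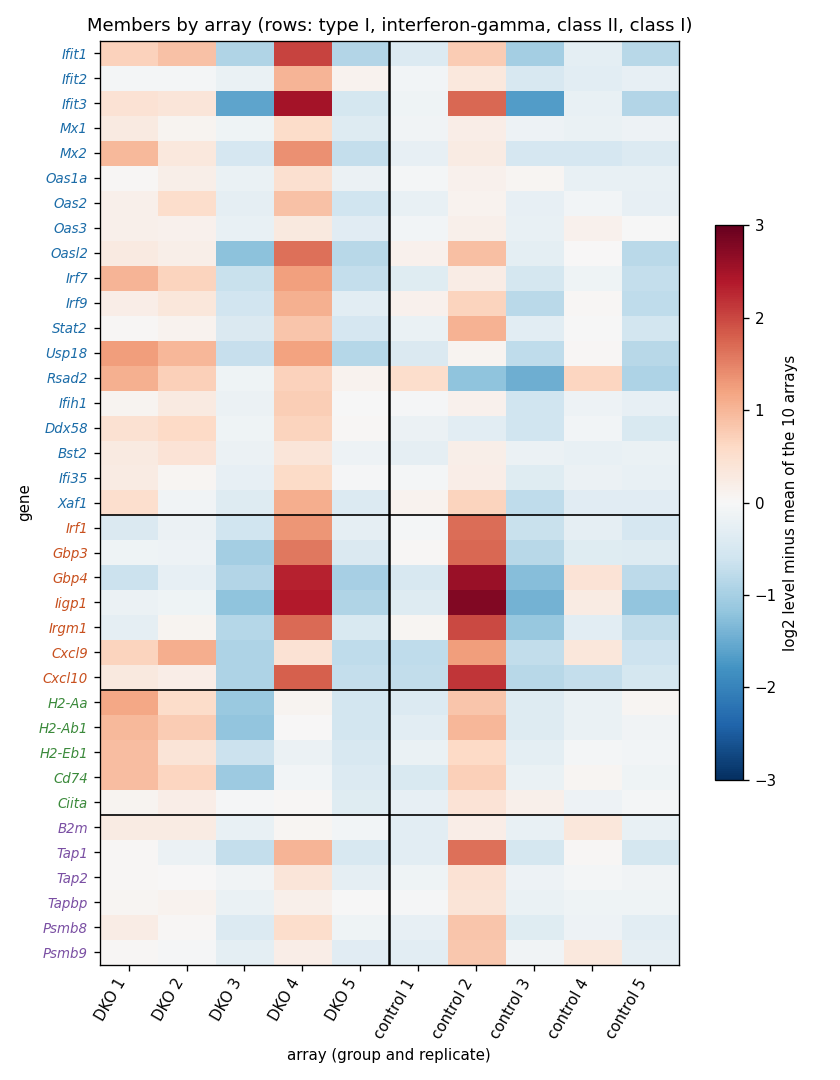
Log2 level of each of the 37 members (rows, coloured by group of genes) minus its mean over the 10 arrays, for 5 DKO arrays on the left and 5 control arrays on the right. DKO replicate 4 and control replicate 2 are high over most rows, and DKO replicates 1 and 2 are high in the class II rows.

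The genes of the interferon-gamma group showed this most clearly. Irf1, the transcription factor that carries much of the interferon-gamma response, measured 7.80, 8.05, 7.63, 9.55 and 7.96 in DKO replicates 1 to 5, against 8.18, 9.90, 7.57, 7.96 and 7.72 in control replicates 1 to 5. The remaining 8 arrays thus lay within 7.57 to 8.18, and 1 array of each group stood far above them. A second, dimmer cluster of Irf1, with a mean level of 6.90, was also highest in these arrays within their groups. For the brighter cluster the difference between groups was -0.07 (95% interval -1.10 to 0.96, limma adjusted p = 0.957).

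Iigp1, an immunity-related GTPase that attacks the vacuoles of intracellular parasites, had the largest pooled SD of all members at 1.55, which exceeds that of 99.9% of genes. It measured 7.40, 7.43, 6.36, 9.95 and 6.65 in DKO arrays, against 7.17, 10.33, 6.14, 7.82 and 6.38 in control arrays. Between the lowest and the highest array the intensity differed 12.0-fold in DKO and 18.3-fold in control pancreas, while the mean was 7.56 ± 1.41 in DKO and 7.57 ± 1.68 in control pancreas (SD, n = 5 each).

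Gbp4, a guanylate-binding protein of the same defence system, measured 6.63, 7.03, 6.40, 9.60 and 6.29 in DKO arrays, against 6.81, 9.87, 6.001, 7.69 and 6.50 in control arrays. Its difference of -0.18 was the most negative of all members (SE 0.79, limma adjusted p = 0.930). Irgm1, a GTPase that controls Iigp1-like proteins and the brightest of the group, measured 8.23, 8.59, 7.67, 10.22 and 8.05 in DKO arrays, against 8.57, 10.48, 7.37, 8.18 and 7.77 in control arrays, with DKO replicate 4 and control replicate 2 more than 1 above the next array. Gbp3 behaved alike, with 9.24 in DKO replicate 4 and 9.39 in control replicate 2 and no other array above 7.72.

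The chemokines of the group attract activated T cells through the receptor CXCR3. Cxcl10 measured 8.01, 7.91, 6.78, 9.51 and 6.99 in DKO arrays, against 6.97, 9.84, 6.88, 6.98 and 7.19 in control arrays. Among the controls only replicate 2 was high, whereas in DKO pancreas replicates 1 and 2 lay between the highest array and the rest. Cxcl9, the dimmest gene of the group, departed from the common order in DKO pancreas. It measured 7.91, 8.34, 6.33, 7.68 and 6.49 in DKO arrays, so that replicate 2 and not replicate 4 was highest, against 6.49, 8.50, 6.51, 7.60 and 6.64 in control arrays. The changes of Cxcl10 (0.27 ± 0.64 SE) and Cxcl9 (0.20 ± 0.48 SE) were smaller than their errors (limma adjusted p = 0.867 and 0.866).

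**Figure D2:**
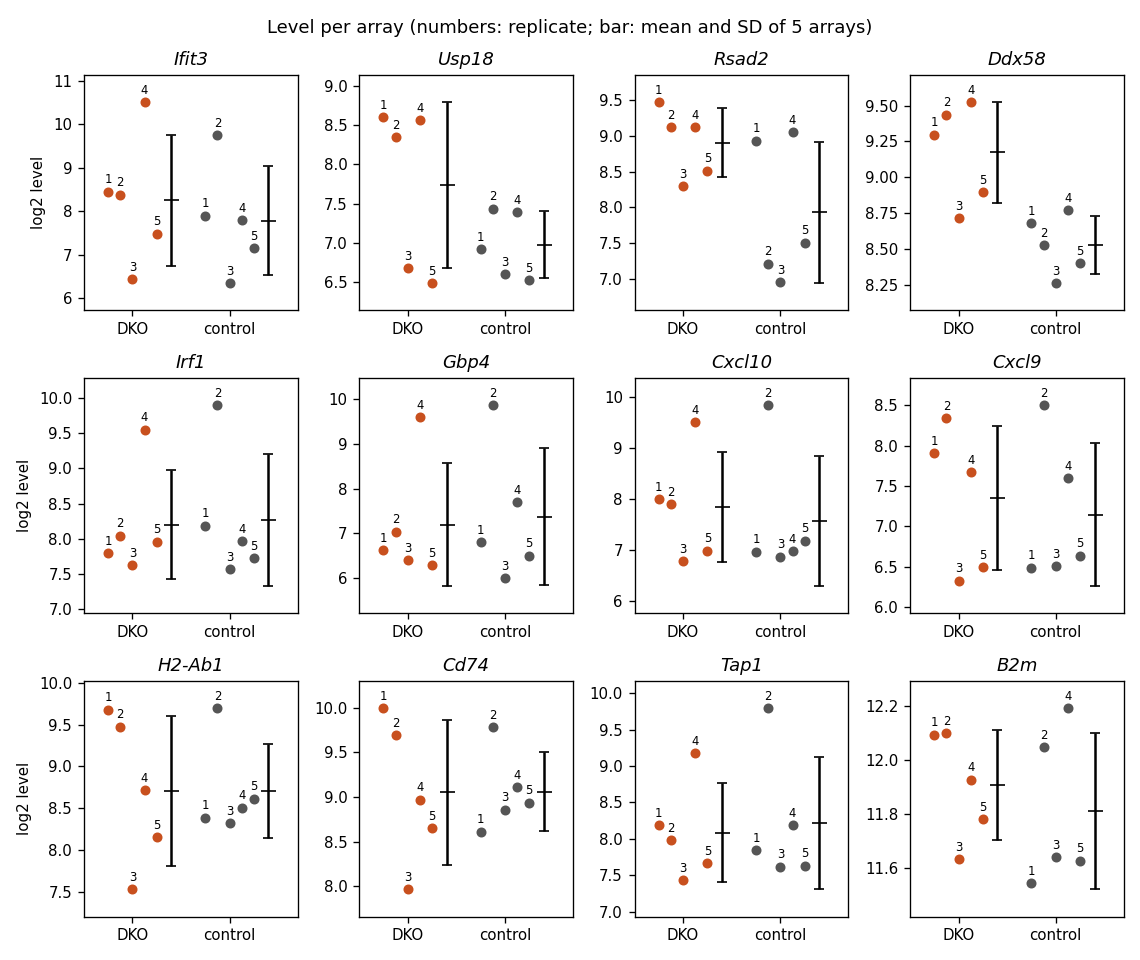
Log2 level of 12 members in each array, DKO left and control right, with the replicate number above each point and the mean with SD of 5 arrays beside it. Irf1, Gbp4 and Cxcl10 have 1 high array in each group, Usp18 has 3 high DKO arrays, and the class II genes H2-Ab1 and Cd74 are highest in DKO replicates 1 and 2 and in control replicate 2.

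The type I group had mostly the same extreme arrays. Ifit3, an antiviral protein of the tetratricopeptide family that restrains viral RNA, had the largest pooled SD of the group at 1.39. It measured 8.45, 8.38, 6.44, 10.51 and 7.48 in DKO arrays, against 7.89, 9.74, 6.35, 7.79 and 7.15 in control arrays, a 16.9-fold range in DKO and a 10.5-fold range in control pancreas. Its relative Ifit1 measured 7.71, 7.89, 6.11, 9.04 and 6.15 in DKO arrays, against 6.61, 7.79, 6.001, 6.74 and 6.18 in control arrays. Oasl2, a relative of the 2'-5' oligoadenylate synthetases, ran from 7.28 to 10.17 in DKO arrays and from 7.72 to 9.43 in control arrays, and its group means differed by 0.02.

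All 19 measured type I genes had a mean log2 change above 0, as had 47.6% of all genes, though Oas3, Oasl2 and Stat2 were below 0 once array medians were subtracted. The median change was 0.29, against -0.01 for all genes, and 0 of 19 passed the test. Many of them varied together from array to array, so their number is no measure of certainty. Without control replicate 2 and DKO replicate 4 the median was 0.27 with 17 of 19 above 0, while without DKO replicate 4 alone it was 0.11 with 15 of 19. Without DKO replicate 1, the array with hepatocyte transcripts, 17 of 19 were above 0.

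In several type I genes with larger changes, DKO replicates 1 and 2 were high beside replicate 4. Usp18, a protease that removes ISG15 and damps the receptor, measured 8.61, 8.35, 6.67, 8.56 and 6.49 in DKO arrays, against 6.92, 7.44, 6.60, 7.39 and 6.52 in control arrays. Replicates 1, 2 and 4 of DKO were above every control, while replicate 3 lay within and replicate 5 just below the control range. The change was 0.76 (95% interval -0.20 to 1.73, limma adjusted p = 0.454). Irf7, the factor that amplifies type I interferon production, was alike, with 8.14, 7.81, 6.46, 8.37 and 6.42 in DKO arrays, against 6.76, 7.35, 6.61, 7.004 and 6.42 in control arrays (change 0.61 ± 0.39 SE, limma adjusted p = 0.489). Mx2, a dynamin-like antiviral GTPase, measured 6.53, 5.86, 5.04, 6.94 and 4.85 in DKO arrays and between 5.04 and 5.80 in control arrays.

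Rsad2, which codes for the antiviral enzyme viperin, had the largest change of all members at 0.98, a 1.97-fold difference (SE 0.42, limma adjusted p = 0.318). It measured 9.48, 9.13, 8.30, 9.12 and 8.52 in DKO arrays, against 8.93, 7.21, 6.95, 9.05 and 7.50 in control arrays. Controls were thus split, and control replicate 2, high in nearly every other member, was among the low ones here. The other gene in which control replicate 2 was not the highest control of the type I group was Ddx58.

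Ddx58 codes for the cytoplasmic RNA sensor RIG-I and was the brightest gene of the type I group. It came closest to the threshold, with 9.30, 9.44, 8.72, 9.52 and 8.89 in DKO arrays, against 8.68, 8.53, 8.26, 8.77 and 8.40 in control arrays. Only DKO replicate 3 and control replicate 4 crossed. The change was 0.64 (95% interval 0.29 to 1.00, 1.56-fold, limma adjusted p = 0.0652; exact permutation p = 0.0159, unadjusted). Its adjusted p was 0.0246 without DKO replicate 3 and 0.0400 when only the brighter 50% of genes were tested, and it reached 0.171 without control replicate 3. Ifih1, the companion sensor MDA5, lay between 8.03 and 8.95 in DKO arrays and between 7.60 and 8.33 in control arrays (change 0.37 ± 0.17 SE, limma adjusted p = 0.363).

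The remaining type I genes had changes of at most 0.32. Mx1, which is defective in most inbred laboratory strains of mouse, was the dimmest member, with 5.16, 4.97, 4.76, 5.43 and 4.50 in DKO arrays, against 4.79, 5.09, 4.73, 4.68 and 4.74 in control arrays. Oas3, an enzyme that makes the activator of the antiviral nuclease RNase L, had the smallest spread of the group and the smallest change, with 6.48, 6.46, 6.10, 6.62 and 5.99 in DKO arrays, against 6.25, 6.49, 6.10, 6.46 and 6.31 in control arrays. Stat2, a partner of Irf9 in the complex that transmits the type I signal, lay between 7.56 and 8.89 in DKO arrays and between 7.51 and 9.10 in control arrays. Irf9 itself lay between 8.08 and 9.71 in DKO arrays and between 7.85 and 9.32 in control arrays. Changes of Ifit2, Oas1a, Oas2, Bst2, Ifi35 and Xaf1 were between 0.12 and 0.32, with limma adjusted p-values of 0.353 to 0.719.

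**Figure D3:**
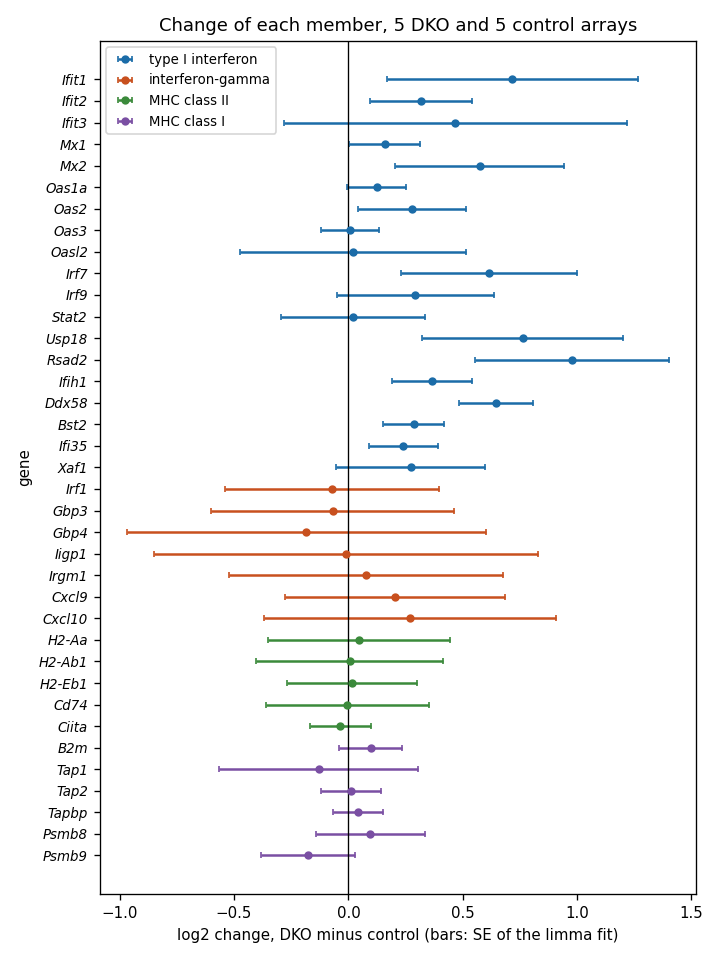
Log2 change (DKO minus control) of each member with the SE of the limma fit, from 5 DKO and 5 control arrays. Type I genes lie at or right of 0, up to 0.98 for Rsad2, and the other 3 groups scatter around 0, with wide bars for the interferon-gamma genes.

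To set both kinds of induced gene side by side, each array was described by the median deviation of its genes from the median of its own group. DKO replicate 4 deviated by 1.73 in the interferon-gamma genes and by 0.66 in the type I genes. Control replicate 2 deviated by 2.30 in the interferon-gamma genes and by 0.52 in the type I genes. In every other array the interferon-gamma deviation lay between -0.87 and 0.09 and the type I deviation between -0.52 and 0.10. A deviation of more than 1 was seen in 6 of 7 interferon-gamma genes and 6 of 19 type I genes in DKO replicate 4 (0.351% of all genes), and in 7 of 7 interferon-gamma genes and 4 of 19 type I genes in control replicate 2 (0.191% of all genes).

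**Figure D4:**
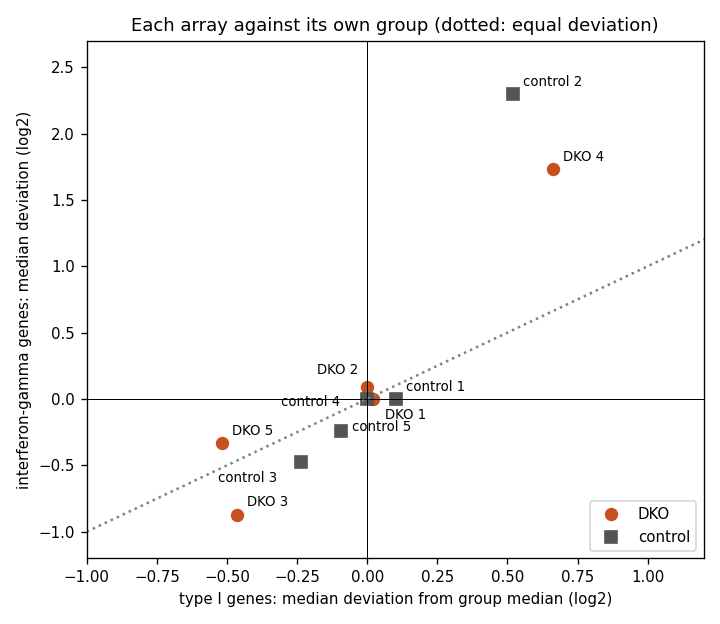
Median deviation of the interferon-gamma genes (vertical, log2) against that of the type I genes (horizontal, log2) for each array, measured from the median of its own group, with DKO as circles and control as squares. DKO replicate 4 and control replicate 2 lie farthest above the line of equal deviation, at 1.73 and 2.30 for the interferon-gamma genes. For these genes the other 8 arrays lie between -0.87 and 0.09, with DKO replicates 2 and 5 slightly above the line.

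Since these genes varied together across arrays, the sequences before their annotated starts are shown for some of them. The promoter table of RefSeq (build GRCm38.p6) held 32 of the 42 genes, each with 250 bases before and 50 after the start. Mx1, Mx2, Oas2, Usp18, Gbp4, Iigp1, H2-Ab1, Cd74, Ciita and Tap2 were not matched. Motifs were sought on both strands in the whole window: the core of the interferon-stimulated response element, which is GAAA repeated after any 2 bases, the gamma-activated site, TTCNNNGAA, and the Y box of class II promoters, CTGATTGG. The first was present in 10 of 17 type I genes and 4 of 6 interferon-gamma genes, against 3.99% of 27025 genes, and in 0 of 2 class II genes and 1 of 7 class I genes. The gamma-activated site was present in 4 of 17 type I and 1 of 6 interferon-gamma genes, against 9.55% of all genes. The gamma-activated site was also in 0 of 2 class II and 1 of 7 class I genes. The Y box was present in 2 of 2 class II, 4 of 7 class I, 2 of 6 interferon-gamma and 0 of 17 type I genes, against 4.70% of all genes. Of the class I genes, Tap1 and Psmb9 have overlapping windows on opposite strands, and their match is the same stretch of bases. Matches of the first motif can overlap one another, as in Irgm1, where GAAATAGAAACCGAAA holds 2 of them. These are matches of letters only, and the lists were made of genes already known to be induced.

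The 250 bases before the start are printed 5′ to 3′ on the strand of the gene, with motif matches in capitals, for the pair of Ifit genes with the widest ranges, for 3 interferon-gamma genes and for a class II gene. Ifit3 lies at chr19:34583279-34583528 (plus strand), Ifit1 at chr19:34640639-34640888 (plus), Irf1 at chr11:53769764-53770013 (plus), Irgm1 at chr11:48871421-48871670 (minus), Cxcl10 at chr5:92348890-92349139 (minus) and H2-Aa at chr17:34287824-34288073 (minus). In both Ifit genes the capitals are paired response elements on the opposite strand, in Irf1 a gamma-activated site, in Irgm1 overlapping response elements, in Cxcl10 a response element followed by a Y box on the opposite strand, and in H2-Aa a Y box.
Ifit3: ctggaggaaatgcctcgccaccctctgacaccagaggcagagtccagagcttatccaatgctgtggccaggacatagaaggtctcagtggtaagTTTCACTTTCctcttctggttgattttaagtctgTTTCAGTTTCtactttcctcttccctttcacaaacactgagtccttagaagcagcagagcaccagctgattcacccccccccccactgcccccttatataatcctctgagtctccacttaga
Ifit1: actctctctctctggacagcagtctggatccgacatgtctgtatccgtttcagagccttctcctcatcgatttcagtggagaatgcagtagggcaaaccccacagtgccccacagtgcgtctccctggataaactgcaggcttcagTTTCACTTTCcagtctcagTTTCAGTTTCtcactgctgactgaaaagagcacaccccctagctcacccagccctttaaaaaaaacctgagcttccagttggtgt
Irf1: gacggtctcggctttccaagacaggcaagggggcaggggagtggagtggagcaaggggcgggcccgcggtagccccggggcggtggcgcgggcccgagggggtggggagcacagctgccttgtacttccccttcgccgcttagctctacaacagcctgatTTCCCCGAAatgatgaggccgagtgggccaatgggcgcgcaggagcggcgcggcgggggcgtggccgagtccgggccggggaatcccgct
Irgm1: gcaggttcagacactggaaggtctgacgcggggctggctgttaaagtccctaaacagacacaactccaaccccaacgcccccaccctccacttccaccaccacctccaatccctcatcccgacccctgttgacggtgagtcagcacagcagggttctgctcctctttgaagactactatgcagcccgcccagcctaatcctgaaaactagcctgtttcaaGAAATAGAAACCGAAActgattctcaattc
Cxcl10: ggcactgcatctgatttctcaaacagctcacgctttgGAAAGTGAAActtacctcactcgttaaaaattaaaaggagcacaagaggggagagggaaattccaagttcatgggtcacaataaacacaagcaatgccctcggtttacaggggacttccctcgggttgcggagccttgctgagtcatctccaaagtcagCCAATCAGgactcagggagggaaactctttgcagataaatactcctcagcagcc
H2-Aa: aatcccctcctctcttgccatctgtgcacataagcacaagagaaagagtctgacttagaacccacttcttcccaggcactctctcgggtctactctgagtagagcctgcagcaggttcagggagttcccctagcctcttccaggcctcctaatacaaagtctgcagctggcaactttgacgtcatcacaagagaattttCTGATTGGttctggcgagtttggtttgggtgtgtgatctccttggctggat

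Class II genes followed another order of arrays. H2-Ab1, the beta chain of the I-A molecule, measured 9.68, 9.48, 7.53, 8.71 and 8.15 in DKO arrays, against 8.39, 9.70, 8.32, 8.51 and 8.61 in control arrays. Cd74, the invariant chain that guides class II molecules and the brightest of the group, measured 9.99, 9.69, 7.96, 8.97 and 8.65 in DKO arrays, against 8.61, 9.78, 8.86, 9.11 and 8.93 in control arrays. H2-Aa, the alpha chain of the same molecule, measured 9.64, 9.05, 7.37, 8.57 and 7.94 in DKO arrays, against 8.08, 9.33, 8.11, 8.29 and 8.54 in control arrays. DKO replicates 1 and 2 were thus highest in DKO and replicate 3 was the lowest of all 10 arrays, while replicate 4, the array with high interferon-gamma genes, was in the middle. DKO replicate 1 lay more than 1 above its group's median in 3 of 5 class II genes and in 0 of the 19 type I, 7 interferon-gamma and 6 class I genes (1.11% of all genes). In control pancreas replicate 2 was highest in 5 of 5 class II genes (16.7% of all genes).

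The group means of class II genes hardly differed: the changes of all 5 lay between -0.04 and 0.05, with a median of 0.01. The intervals were wide, for H2-Ab1 from -0.89 to 0.90 (95%, change 0.01, limma adjusted p = 0.997). H2-Eb1, the beta chain of I-E, ran from 7.70 to 9.26 in DKO and from 8.03 to 8.94 in control arrays. Ciita, the coactivator on which class II transcription depends, was the dimmest of the group and varied least, with 6.51, 6.61, 6.38, 6.45 and 6.05 in DKO arrays, against 6.17, 6.82, 6.56, 6.27 and 6.36 in control arrays. With DKO replicate 1 left out, which carried the hepatocyte transcripts, the median change of the class II genes was -0.24, and no member passed.

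Markers of leukocytes moved with most class II genes among the DKO arrays. The mean level of 5 pan-leukocyte genes was 9.02, 8.94, 7.90, 8.51 and 8.24 in DKO replicates 1 to 5, against 8.19, 8.61, 8.26, 8.52 and 8.30 in control replicates 1 to 5. DKO replicates 1 and 2 were thus the highest of all arrays and DKO replicate 3 the lowest. For H2-Ab1 the order within DKO was the same, but control replicate 2, at 9.70, was the highest of all arrays. The summed level of the leukocyte genes ran from 39.5 to 45.1 in DKO and from 41.0 to 43.1 in control arrays, and 0 of 5 passed the test. Among single markers, Ptprc, the leukocyte antigen CD45, measured 8.25, 8.37, 7.21, 8.04 and 7.51 in DKO arrays and between 7.52 and 7.98 in control arrays. The mean of 7 B cell genes lay between 5.79 and 6.63 in DKO and between 5.87 and 6.52 in control arrays, and was lowest among controls in replicate 2, where class II genes were highest. Cd79a, a subunit of the B cell receptor, measured 7.07 and 6.61 in DKO replicates 1 and 2 and 5.81 in control replicate 2. The mean of 8 dendritic cell genes was 6.31 and 6.36 in DKO replicates 1 and 2 and 5.89 to 6.02 in the other DKO arrays. Control arrays lay between 6.01 and 6.14, with replicate 2 at 6.08. Replicate 1 was highest of DKO in 3 of these 8 genes (24.3% of all genes) and replicate 2 in 4 (21.6% of all genes). Ccl19, a chemokine of lymph node stroma named after its values were seen, measured 8.97 and 8.53 in DKO replicates 1 and 2, between 7.25 and 7.36 in the other DKO arrays, 8.22 in control replicate 4 and between 7.16 and 7.53 in the other controls. Of the 4 measured stroma genes, replicate 1 was highest of DKO in 3 (24.3% of all genes) and replicate 2 in 0 (21.6% of all genes). Another of them deviated by -0.99 from the DKO median in replicate 1. The part of these cells in the class II levels was not tested, and in bulk tissue more cells of a type and more RNA per cell cannot be told apart.

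The arrays with high interferon-gamma genes were not those with the most T cell transcripts. The mean of 8 T cell genes was 6.37 in DKO replicate 4, where the DKO range was 6.32 to 6.93, and 6.55 in control replicate 2, where the control range was 6.34 to 6.61. Cd3e, a chain of the T cell receptor complex, measured 7.41 in DKO replicate 4, the lowest of DKO (7.41 to 8.26), and 7.76 in control replicate 2 (control range 7.48 to 7.95). The mean of 10 macrophage genes was highest in both arrays, although single genes were highest in DKO replicate 4 in 5 of 10 (16.5% of all genes) and in control replicate 2 in 8 of 10 (16.7% of all genes). It was 9.43 in DKO replicate 4, against 8.99 to 9.35 in the other DKO arrays, and 9.49 in control replicate 2, against 8.98 to 9.25 in the other controls. Csf1r, the receptor of macrophage growth factor, measured 9.64 in DKO replicate 4 (DKO range 9.47 to 9.64) and 9.61 in control replicate 2 (control range 9.19 to 9.61), whereas Adgre1, the macrophage antigen F4/80, measured 8.66 in DKO replicate 4 (DKO range 8.30 to 9.10) and 9.40 in control replicate 2 (control range 8.33 to 9.40). Itgax, a dendritic cell integrin, was dim, with 5.52 to 5.98 in DKO and 5.57 to 5.70 in control arrays. All 6 endothelial markers were also highest of DKO in replicate 4, with a mean of 9.60, against 9.35 to 9.45 in the other DKO arrays, but in control replicate 2 their mean of 9.36 lay at the lower end of the control range of 9.35 to 9.58. No marker of leukocytes, T cells, B cells, plasma cells, macrophages, dendritic cells or lymph node stroma passed the test, and the part of such cells in the interferon-gamma levels was not tested. The macrophage genes were mixed: 3 of 10 were higher and 1 lower in DKO at an unadjusted p of 0.05, against 14.8% of all genes in either direction. Their changes lay between -0.46 and 0.33, with a lowest limma adjusted p of 0.0556.

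Class I genes varied less, apart from Tap1. This gene codes for a subunit of the transporter that carries peptides into the endoplasmic reticulum and measured 8.19, 7.98, 7.43, 9.17 and 7.66 in DKO arrays, against 7.85, 9.79, 7.62, 8.19 and 7.63 in control arrays, again with DKO replicate 4 and control replicate 2 on top. Psmb8, a subunit of the immunoproteasome and the dimmest of the group, measured 7.72, 7.54, 7.08, 8.04 and 7.37 in DKO arrays, against 7.27, 8.33, 7.13, 7.35 and 7.19 in control arrays. Psmb9, another such subunit, measured 8.29, 8.21, 7.95, 8.44 and 7.91 in DKO arrays, against 7.93, 9.06, 8.14, 8.56 and 7.98 in control arrays (change -0.18 ± 0.20 SE, limma adjusted p = 0.713). In 6 of 6 class I genes the SD was larger in control, as in 6 of 7 interferon-gamma genes, and in 17 of 19 type I and 4 of 5 class II genes it was larger in DKO, as in 58.4% of all genes.

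B2m, the light chain of class I molecules, was by far the brightest member, at a level above that of 99.1% of genes. It measured 12.09, 12.10, 11.63, 11.93 and 11.78 in DKO arrays, against 11.55, 12.05, 11.64, 12.19 and 11.63 in control arrays, a change of 0.10 (95% interval -0.21 to 0.40, limma adjusted p = 0.769). Control replicate 4 and not replicate 2 was highest here. Tapbp, the chaperone tapasin, had the smallest spread of all members, with 9.83, 9.88, 9.57, 9.92 and 9.77 in DKO arrays, against 9.73, 10.16, 9.57, 9.65 and 9.64 in control arrays. Tap2, the partner of Tap1, lay between 7.81 and 8.43 in DKO and between 7.93 and 8.50 in control arrays.

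**Figure D5:**
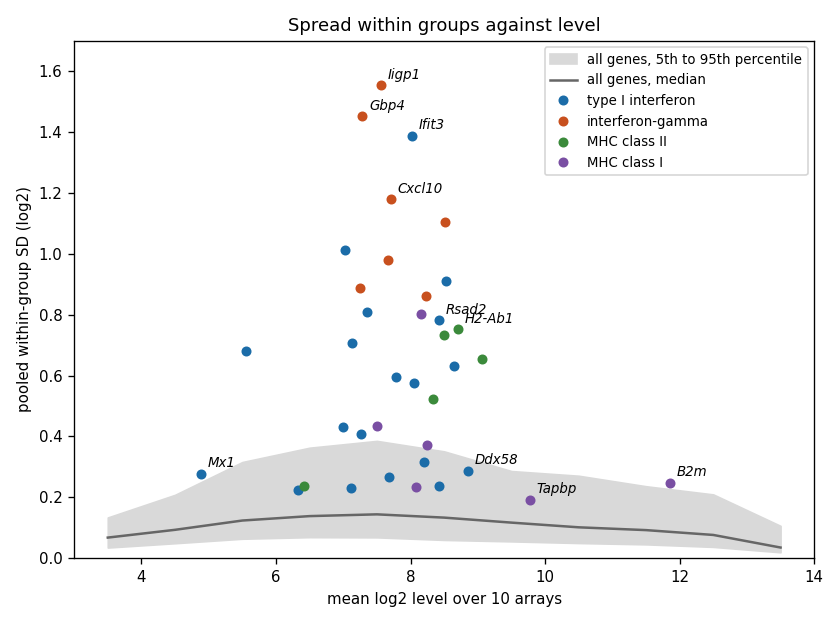
Pooled within-group SD (log2) of each member against its mean log2 level over 10 arrays, with the median and the 5th to 95th percentile of all genes by level in grey. Iigp1, Gbp4, Ifit3 and Cxcl10 lie farthest above the grey band, and B2m, Tapbp and Ddx58 near or within it.

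The median spread was smaller without the 2 top arrays in 3 of the 4 groups of genes. These arrays were picked for being highest in most members, so a smaller spread without them follows from the choice and is no separate result. With control replicate 2 and DKO replicate 4 left out, an alternative chosen after seeing the data, the median pooled SD was 0.46 instead of 1.11 in the interferon-gamma genes, 0.35 instead of 0.58 in the type I genes and 0.22 instead of 0.31 in the class I genes. In the class II genes it was 0.68 instead of 0.65. Over all members it was then 0.39 (all genes 0.12), and 24 of 37 members were still in the 10% of genes with the largest spread.

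Other genes of the pathway, taken from lists that are not part of the 42, included 2 that rose. Of 16 interferon genes 0 passed by limma (1 at an unadjusted p of 0.05, against 14.8% of all genes), the smallest p-values being those of Ifna5 (change -0.33 ± 0.10 SE, adjusted p = 0.136) and Ifna2 (-0.15 ± 0.09 SE, adjusted p = 0.467). Ifng, the gene of interferon-gamma, measured 6.33, 6.38, 6.43, 6.82 and 6.14 in DKO arrays, against 6.39, 6.45, 6.57, 6.34 and 6.35 in control arrays, highest in DKO replicate 4 but not in control replicate 2. All of these levels lay below the array medians of 7.12 to 7.15, and whether they exceed background was not tested.

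Among 18 receptors and signal transducers 1 rose and none fell, against 2.08% of all genes higher and 0.366% lower. At an unadjusted p of 0.05, 5 were higher, against 14.8% of all genes in either direction, and 4 lay wholly higher in DKO (3.52% of all genes). The gene that rose was Ifnlr1, the receptor chain for interferon-lambda, a cytokine that acts mainly on epithelia, with 8.04, 7.74, 8.01, 8.01 and 7.84 in DKO arrays, against 7.47, 7.54, 7.64, 7.34 and 7.31 in control arrays. The groups did not overlap, and the change was 0.47 ± 0.08 (SE, limma adjusted p = 0.0137). The other 3 that lay wholly higher did not pass. They were Ptpn2, a phosphatase that damps JAK signalling (change 0.42 ± 0.10 SE, limma adjusted p = 0.0516), Ifngr1, a chain of the interferon-gamma receptor (0.26 ± 0.06 SE, adjusted p = 0.0614), and Jak2, a kinase bound to that receptor (0.32 ± 0.10 SE, adjusted p = 0.136). Among 14 nucleic acid sensors and their adaptors 1 rose and none fell (2.08% of all genes higher, 0.366% lower). Tlr3, the endosomal receptor for double-stranded RNA, measured 8.13, 8.54, 7.95, 8.30 and 8.17 in DKO arrays, against 7.68, 7.66, 7.21, 7.85 and 7.41 in control arrays (change 0.65 ± 0.13 SE, 1.57-fold, limma adjusted p = 0.0281), and the groups did not overlap. Leaving out DKO replicate 2, 4 or 5 or control replicate 2, 3 or 5 took the adjusted p of Tlr3 to between 0.0521 and 0.0724. Without control replicate 2 and DKO replicate 4 together it was 0.132 for Tlr3 and 0.0772 for Ifnlr1, with changes of 0.66 and 0.47. Neither gene was higher in the arrays with high interferon-gamma genes than in all others of its group.

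Of 45 further interferon-induced genes 0 passed by limma (5 at an unadjusted p of 0.05, all higher, against 14.8% of all genes in either direction), Nmi (0.40 ± 0.14 SE, adjusted p = 0.217) and Epsti1 (0.34 ± 0.12 SE, adjusted p = 0.225) having the smallest p. Their highest arrays were again DKO replicate 4 (36 of 45, against 16.5% of all genes) and control replicate 2 (34 of 45, against 16.7%), and both held in 27 (2.77% of all genes). Gbp5 and Cd274 were named after their values were seen. Gbp5, a guanylate-binding protein, measured 6.90 in DKO replicate 4 and 4.95 to 5.48 in the other DKO arrays, against 7.04 in control replicate 2 and 5.01 to 5.47 in the other controls. Cd274, the checkpoint ligand PD-L1, likewise measured 7.79 in DKO replicate 4 and 6.16 to 6.77 in the other DKO arrays, against 8.40 in control replicate 2 and 6.20 to 6.44 in the other controls.

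The further list for the class I pathway was broad. Its 21 measured genes included Psmb5, Psmb6, Psmb7, Calr, Canx, Pdia3 and H2-Ke6, which are not particular to class I presentation. Of the 21 genes 0 passed by limma (1 at an unadjusted p of 0.05, against 14.8% of all genes). Psmb10, the third subunit particular to the immunoproteasome, had a change of -0.26 ± 0.07 (SE, limma adjusted p = 0.0925) and H2-T10 one of -0.13 ± 0.06 (SE, adjusted p = 0.369). Psmb10 measured 9.77, 9.90, 9.91, 10.01 and 9.90 in DKO arrays, against 10.09, 10.35, 10.20, 10.004 and 10.13 in control arrays. Of 16 further class II genes 0 passed (2 at an unadjusted p of 0.05, against 14.8% of all genes), the lysosomal proteases Ctsl (0.21 ± 0.07 SE, adjusted p = 0.198) and Lgmn (0.39 ± 0.14 SE, adjusted p = 0.207) having the smallest p. DKO replicate 4 was highest of DKO in 4 of 21 genes of this class I list and 4 of 16 of the class II list (16.5% of all genes). Control replicate 2 was highest of control in 13 of 21 genes of the class I list and 4 of 16 of the class II list (16.7% of all genes).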

How the data were processed

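Values were the log2 intensities per transcript cluster in the series' table, which the authors deposited; per the submitters' processing notes they were made with Affymetrix Expression Console, with a version and normalization settings not given in the sources used here. Array medians lay between 7.12 and 7.15. Of 35556 clusters, 21789 had 1 gene symbol in the platform annotation, 1621 had several and 12146 had none; 21698 of the gene IDs were found in the RefSeq table (GRCm38.p6). The brightest cluster of each gene gave 19938 genes, with no filter on low values. The number of arrays (5 in each group) limits the precision. Probes of the Ifit, Oas, Gbp and H2 families may be shared between near-identical copies.

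DKO and control were compared with limma 3.58.1 (R 4.3.3; lmFit and eBayes, two-sided, Benjamini-Hochberg adjustment over all genes, threshold 0.05), which was tested on simulated data. Exact permutation of the labels (252 splits, two-sided), another normalization, filters on dim genes, other variance models, a replicate block, left-out arrays and the mean of a gene's clusters were alternatives. Members and lists were chosen with earlier results of these data known. Values in every array were given, in each group of members, for the brightest and dimmest gene, those with the highest and lowest spread and those with the largest changes; other genes given array by array were chosen after their values were seen. Of the further lists, genes past the test or the 2 with the smallest p were named. Protein sequences were not analysed here.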

Additional observations from a re-analysis of the deposited data

Results flagged for a closer look

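In 13 of 74 sets of 5 arrays (37 members in each group) the highest array stood apart from the others by more than 0.71 of the group's range, Dixon's critical value. That is 17.6% of the sets, against 6.59% over all genes, and chance flags about 1 in 20. All 13 were the highest array of DKO replicate 4 (3 sets) or control replicate 2 (10 sets).

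In DKO pancreas these were Ifit2 at 8.27 (other DKO arrays 7.06 to 7.36), Irf1 at 9.55 (7.63 to 8.05) and Gbp4 at 9.60 (6.29 to 7.03). In control pancreas they were, among induced genes, Mx1 at 5.09 (other controls 4.68 to 4.79), Bst2 at 8.59 (8.14 to 8.24), Irf1 at 9.90 (7.57 to 8.18) and Cxcl10 at 9.84 (6.88 to 7.19). Of the class II genes they were H2-Ab1 at 9.70 (8.32 to 8.61) and H2-Eb1 at 8.94 (8.03 to 8.27). Of the class I genes they were Tap1 at 9.79 (7.62 to 8.19), Tap2 at 8.50 (7.93 to 8.01), Tapbp at 10.16 (9.57 to 9.73) and Psmb8 at 8.33 (7.13 to 7.35). Irf1, by its brighter cluster, was the member in which both arrays stood apart.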

How the results depend on the processing

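No member lost a call, since none had one, and 0 members were called except under 3 settings, where 1 member, Ddx58, passed: without the dimmest 50% of genes, with the replicate block and without DKO replicate 3 (leave-one-out counts 0 to 1). Of 724 pairs of member and alternative, 631 kept direction and side of the threshold, 3 passed newly and 90 changed sign, all 90 at an adjusted p of at least 0.635. The 16 members that kept their sign included 15 type I genes. The cause of the changes of sign was not tested.

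Over all genes, 487 passed (414 higher, 73 lower). Calls lower were 125 after quantile normalization, and calls higher 271 after subtracting array medians. Without control replicate 2 and DKO replicate 4 there were 151 (146 higher, 5 lower), with fewer arrays, and by exact permutation 0 (0 higher, 0 lower), whose smallest p, 0.00794, gives an adjusted p of 0.165, so that no gene could pass. Leaving out 1 array gave 260 to 433 (232 to 372 higher, 28 to 64 lower). Same-numbered arrays had deviations that correlated between -0.27 and 0.29, and DKO and control arrays of unlike number between -0.32 and 0.52. Correlations so few and so spread cannot tell whether equal numbers pair the samples. The replicate block gave 178 calls (162 higher, 16 lower), with Ddx58 at an adjusted p of 0.0251 and Ifnlr1 at 0.0609, and changed no other call among the genes tested this way.

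Changes of sign after quantile normalization were Oasl2 -0.024, Stat2 -0.020, H2-Aa -0.0031, H2-Ab1 -0.045, H2-Eb1 -0.029, Tap2 -0.039 and Tapbp -0.00098. After subtracting array medians they were Oas3 -0.033, Oasl2 -0.019, Stat2 -0.021, H2-Ab1 -0.035, H2-Eb1 -0.025 and Tap2 -0.029. With array weights they were Iigp1 0.085, H2-Aa -0.15, H2-Ab1 -0.18 and H2-Eb1 -0.10. Without control replicate 2 and DKO replicate 4 they were Oas3 -0.023, Oasl2 -0.16, Iigp1 0.083, Cd74 0.20 and Ciita 0.049. Leaving out 1 array gave these ranges of the change: Cd74 -0.24 to 0.27, Ciita -0.10 to 0.061, Cxcl10 -0.15 to 0.83, Cxcl9 -0.045 to 0.54, Gbp3 -0.47 to 0.35, Gbp4 -0.79 to 0.44, H2-Aa -0.24 to 0.33, H2-Ab1 -0.24 to 0.30, H2-Eb1 -0.21 to 0.18, Ifit3 -0.097 to 0.96, Iigp1 -0.61 to 0.68, Irf1 -0.41 to 0.34, Irgm1 -0.34 to 0.58, Oas3 -0.065 to 0.094, Oasl2 -0.39 to 0.33, Psmb8 -0.026 to 0.32, Psmb9 -0.28 to 0.0058, Stat2 -0.19 to 0.28, Tap1 -0.40 to 0.26, Tap2 -0.076 to 0.12 and Tapbp -0.0030 to 0.14. Medians ranged from 0.11 to 0.45 in type I, -0.41 to 0.54 in interferon-gamma, -0.24 to 0.27 in class II and -0.05 to 0.15 in class I genes.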
